A study of Mus musculus with 6 samples.

Results

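The genes described here are 34 genes that carry glucose to lactate or into the mitochondrion: 2 glucose transporters, 3 hexokinases, 17 genes of the steps between glucose-6-phosphate and pyruvate, 4 genes that make or carry lactate, 6 genes of pyruvate dehydrogenase and its kinases, and both subunits of the mitochondrial pyruvate carrier. They were chosen by name, from the known roles of their products, but with earlier results of these data known. Each was read from the brightest array probe that a RefSeq accession assigns to it. All 34 were among the 25788 genes tested, and all 34 were well above background on every array.

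The exoNOD cells were dispersed from pancreatic islets (male mice, strain C57Bl/6N) and cultured for 72 h with 50 µg/ml of exosomes, small vesicles shed by cells. NOD mice, which develop autoimmune diabetes, supplied the CD4+CD25- T lymphocytes whose conditioned medium yielded the exosomes. Control cells were the same kind of dispersed islet cells, cultured for 72 h without added exosomes, and the medium of both groups contained sodium pyruvate. There were 3 exoNOD and 3 control arrays from 3 experiments, each with other islet and exosome preparations, and the question was what these exosomes change in islet-cell RNA. Islets are mixtures of hormone-secreting cells with some duct, vessel, stromal and immune cells, so in these bulk samples fewer cells of a type and less RNA per cell cannot be told apart.

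In most cells glucose enters through Slc2a1 (GLUT1), is trapped by a hexokinase, committed by phosphofructokinase and split and oxidised to pyruvate. Lactate dehydrogenase A turns pyruvate into lactate, which leaves through the carrier Slc16a3 (MCT4). Beta cells are known for the opposite arrangement: they take up glucose through Slc2a2 (GLUT2), keep Ldha and lactate carriers low and send pyruvate to the mitochondrion, which ties insulin release to blood glucose. Many glycolytic genes are textbook targets of the hypoxia-inducible factor HIF-1, which binds the letters ACGTG or GCGTG in DNA.

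Promoters of genes that rose in exoNOD cells are shown with these letters marked. RefSeq on build GRCm38.p6 gave 53 promoter windows for 33 of the 34 genes, each 300 bases long, with 250 bases before the transcription start and 50 after it. Capitals mark every ACGTG or GCGTG on either strand, where CACGT and CACGC are the same letters on the other strand and CACGTG contains ACGTG on both. Ldha, Slc16a3, Hk2, Pfkp and Pgk1 had the 5 lowest adjusted p of the set with the replicate block, and Ldhb, the other lactate dehydrogenase subunit, is set beside them as a gene that did not pass. Their windows are chr7:46845554-46845853 on the plus strand for Ldha, chr11:120948817-120949116 on the plus strand for Slc16a3, chr6:82774405-82774704 on the minus strand for Hk2, chr13:6648722-6649021 on the minus strand for Pfkp, chrX:106186850-106187149 on the plus strand for Pgk1, and chr6:142507908-142508207 on the minus strand for Ldhb.
Ldha: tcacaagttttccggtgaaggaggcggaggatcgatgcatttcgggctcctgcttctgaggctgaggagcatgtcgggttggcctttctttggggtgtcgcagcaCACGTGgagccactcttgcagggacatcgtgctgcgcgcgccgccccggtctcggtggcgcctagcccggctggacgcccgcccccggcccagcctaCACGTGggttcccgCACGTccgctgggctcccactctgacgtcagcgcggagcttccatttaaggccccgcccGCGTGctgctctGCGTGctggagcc
Slc16a3: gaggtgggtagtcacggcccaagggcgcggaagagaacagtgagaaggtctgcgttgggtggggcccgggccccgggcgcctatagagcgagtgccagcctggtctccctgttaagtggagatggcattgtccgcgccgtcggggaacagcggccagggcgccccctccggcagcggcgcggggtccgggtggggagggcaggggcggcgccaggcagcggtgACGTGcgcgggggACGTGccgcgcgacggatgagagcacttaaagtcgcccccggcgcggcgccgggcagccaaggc
Hk2: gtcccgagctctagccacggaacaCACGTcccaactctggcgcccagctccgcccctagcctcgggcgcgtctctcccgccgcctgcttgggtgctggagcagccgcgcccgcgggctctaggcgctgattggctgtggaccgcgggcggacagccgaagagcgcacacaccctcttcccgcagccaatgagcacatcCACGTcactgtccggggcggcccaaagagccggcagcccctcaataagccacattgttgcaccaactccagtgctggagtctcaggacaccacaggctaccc
Pfkp: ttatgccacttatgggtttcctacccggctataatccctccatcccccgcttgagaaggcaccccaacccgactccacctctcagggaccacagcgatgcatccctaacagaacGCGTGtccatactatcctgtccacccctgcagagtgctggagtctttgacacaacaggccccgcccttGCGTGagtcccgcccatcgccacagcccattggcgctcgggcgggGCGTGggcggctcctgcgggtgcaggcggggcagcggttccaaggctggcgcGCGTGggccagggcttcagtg
Pgk1: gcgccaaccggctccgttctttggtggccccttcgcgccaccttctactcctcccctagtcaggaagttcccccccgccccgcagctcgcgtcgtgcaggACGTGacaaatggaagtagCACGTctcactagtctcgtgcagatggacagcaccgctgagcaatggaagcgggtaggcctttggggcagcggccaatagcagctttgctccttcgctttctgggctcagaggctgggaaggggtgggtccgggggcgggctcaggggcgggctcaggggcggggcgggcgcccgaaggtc
Ldhb: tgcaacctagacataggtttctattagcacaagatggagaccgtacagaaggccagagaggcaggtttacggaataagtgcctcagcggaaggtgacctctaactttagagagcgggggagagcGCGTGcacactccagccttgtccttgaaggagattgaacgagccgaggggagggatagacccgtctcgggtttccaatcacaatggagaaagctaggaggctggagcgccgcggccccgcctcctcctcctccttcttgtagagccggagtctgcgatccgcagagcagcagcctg
The Ldha window shown, the upstream one of 2, held 5 matches to ACGTG counted over both strands, with CACGTG counted once on each, and 2 matches to GCGTG. It was the only window of the 53 with 5 or more ACGTG, and 0.183% of all 32851 mouse promoter windows had as many. The cut of 5 is the count of this window itself, so that share is a description. The other Ldha window held 0 ACGTG and 2 GCGTG. The Pfkp window held GCGTG 4 times, and so did that of Pdha1, which did not pass in either fit. Of all promoter windows 1.33% had 4 or more. Ldhb is not typical of the genes that did not rise. Counted in the same way, Slc16a1 had 3 ACGTG and 2 GCGTG. A window of Pfkfb2, which fell, had 2 of each, and a window of Pfkm had 3 ACGTG. The letters ACGTG occurred in 41.5% of the 53 windows and in 19.6% of all promoter windows, and GCGTG in 56.6% and 32.4%. Counted by gene, ACGTG occurred in a window of 87.5% of the 8 genes that rose with the replicate block and of 44.0% of the 25 other genes of the set with a window. For GCGTG the shares ran the other way, at 62.5% and 76.0%, and for either motif they were 100% and 88.0%. Among all genes with a window, the shares were 21.8% for ACGTG, 35.2% for GCGTG and 46.7% for either motif. The genes that rose were picked by their values, so these shares are a description, and a match in letters is not a binding site.

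The 75th percentile of signal was between 869 and 890 on exoNOD arrays and between 812 and 883 on control arrays. The median signal was higher on every exoNOD array, at 121, 140 and 129, against 112, 117 and 112 on control arrays. Between 78.1% and 81.8% of spots were well above background, and no spot was saturated. Levels below are log2 signal relative to the 75th percentile of the same array, and a change is exoNOD minus control on that scale. Beta cell markers were bright on every array. The summed signal of 10 beta cell markers was between 1074 and 1095 times the 75th percentile on exoNOD arrays and between 1107 and 1175 times on control arrays. Exosome-treated arrays also differed in other cell markers. The sum of 5 duct markers was between 7.03 and 9.31 in exoNOD, against between 4.53 and 6.73 in control, with 3 of the 5 higher and 2 of them past the threshold with the block described below. That of 5 endothelial markers was between 8.59 and 9.24, against between 7.14 and 8.29, although 3 of the 5 were lower, their median change was -0.095 and, with the block, 1 rose and 1 fell. Macrophage markers (5 of 6 tested) summed to between 18.3 and 19.8 in exoNOD, against between 23.8 and 26.8 in control, with all 5 lower and 2 of them past the threshold with the block. Summed markers of alpha cells were between 397 and 404, against between 424 and 442, while those of fibroblast and stellate cells (52.9 to 74.6, against 41.5 to 62.8), delta cells (84.4 to 108, against 94.1 to 122), T lymphocytes (14.1 to 18.4, against 14.1 to 18.9) and acinar cells (0.695 to 1.08, against 0.648 to 0.761) overlapped between the groups. The part of these cells in the results below was not tested.

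Group means were higher in exoNOD for 17 of the 22 genes from glucose uptake to pyruvate, and the largest changes were at hexokinase and at the lactate end of the pathway. Ldha was 1.98-fold and the lactate carrier Slc16a3 2.45-fold higher in exoNOD cells, and Hk2, the inducible hexokinase, 2.05-fold higher. For pyruvate dehydrogenase, its kinases and the pyruvate carrier, changes were between -0.29 and 0.040 on the log2 scale, apart from 0.60 for the kinase Pdk1. In limma's fit of the 3 exoNOD and 3 control arrays without pairing, none of the 34 genes passed an adjusted p of 0.05 over all genes, against 0.105% of all genes tested (0.101% higher and 0.00388% lower). The lowest adjusted p were 0.0823 for Hk2 and 0.0956 for Ldha. At an unadjusted p below 0.05, 7 of the 34 were higher and 1 lower, against 13.3% and 3.39% of all genes.

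Arrays of equal replicate number deviated together from their group means across genes, so the fit with the replicate number as a block is given too. With this block 8 of the 34 genes rose (Slc2a1, Hk2, Pfkp, Aldoc, Pgk1, Pgam1, Ldha and Slc16a3), 1 fell (Pfkfb2) and 25 did not pass, that is 26.5% passed, against 8.72% of all genes tested (6.89% rose and 1.83% fell). In the order of p-values with the block over all 25788 genes, Ldha stood at place 22, Slc16a3 at 25 and Hk2 at 33. Below, "rose" and "fell" refer to this fit at an adjusted p of 0.05. The labels do not say that equal numbers share an islet preparation. Without the block the p-values measure the spread between arrays of a group, and with it the spread of the pair differences.

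The median change over the 34 genes was 0.24, against 0.035 over all genes tested. Group means were higher in exoNOD for 23 of the 34 and lower for 11, against 55.4% of all genes higher. In all 3 pairs of equal number 15 were higher and 8 lower, against 29.0% and 22.1% of all genes. Every exoNOD array lay above every control array for 4 genes (Hk2, Hkdc1, Ldha and Slc16a1) and below for 3 (Pfkm, Ldhb and, only barely, Pdk2), against 14.6% and 7.79% of all genes. Centring each array on its median moved the median of all genes to -0.096 and that of the 34 to 0.11. With a normexp background correction, the median of the 34 was 0.21 and lay below that of all genes, 0.35.

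**Figure D1:**
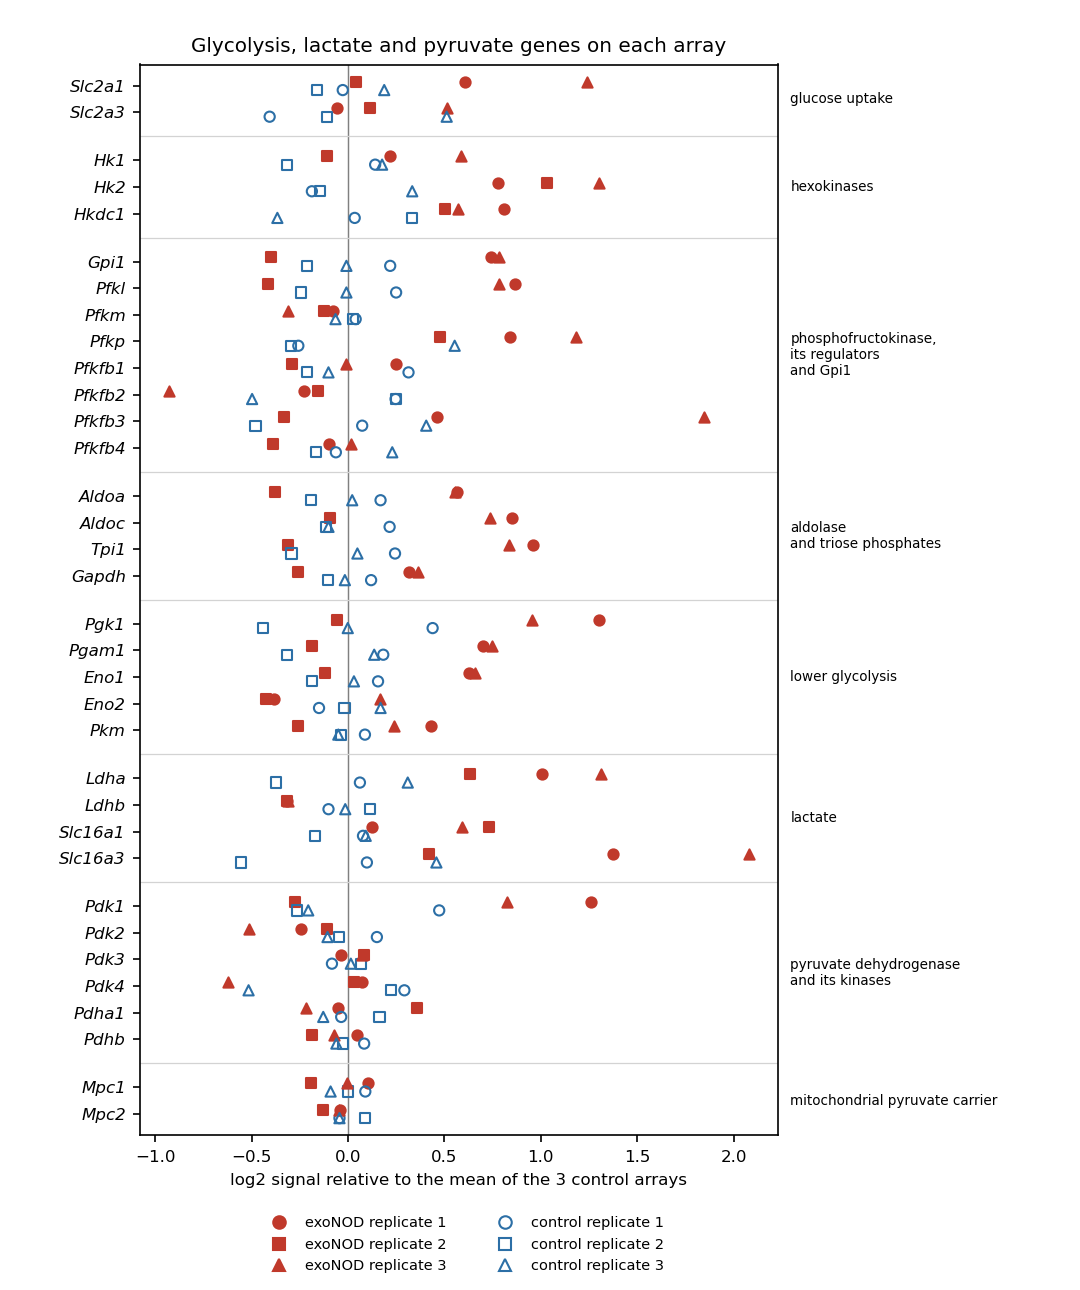
Log2 signal of each of the 34 genes on every array, relative to the mean of the 3 control arrays, with exoNOD arrays filled in red above the open blue control arrays and one symbol per replicate number. The red squares (exoNOD replicate 2) lie left of the other red symbols for 18 of the 22 genes from glucose uptake to pyruvate, while for Hk2 and Ldha all 3 red symbols lie right of all blue ones.

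Glucose uptake: Slc2a1, the ubiquitous glucose transporter, was at 3.02, 2.46 and 3.65 on exoNOD arrays 1 to 3, against 2.39, 2.25 and 2.60 on control arrays 1 to 3. Its exoNOD array 2 lay below control array 3, so the groups overlapped, yet each exoNOD array was above the control array of its number. The change was 0.63 ± 0.26 (SE, n = 3 each; adjusted p 0.282), or 1.55-fold, and Slc2a1 rose with the block (SE 0.13, adjusted p 0.0209). Slc2a3, the neuronal transporter, was between -3.24 and -2.67 in exoNOD and between -3.59 and -2.67 in control (change 0.19, adjusted p 0.718, with the block 0.399).

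Hexokinases, which trap glucose in the cell: Hk2 was at -0.34, -0.087 and 0.18 on exoNOD arrays, against -1.31, -1.27 and -0.79 on control arrays. All 3 exoNOD arrays lay above all 3 control arrays. The change of 1.04 ± 0.18 (SE, n = 3 each) had an adjusted p of 0.0823, and Hk2 rose with the block (SE 0.095, adjusted p 0.000613), with pair differences of 0.96, 1.18 and 0.97. Hk1, the constitutive hexokinase was at 1.33, 1.01 and 1.70 in exoNOD, against 1.26, 0.80 and 1.29 in control, and the groups overlapped. Its change was 0.23 ± 0.20 (SE, n = 3 each; adjusted p 0.557, with the block 0.126). Hkdc1, a hexokinase domain protein, was between -3.90 and -3.59 in exoNOD and between -4.77 and -4.07 in control with no overlap, but did not pass (change 0.63, adjusted p 0.234, with the block 0.0729).

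Phosphofructokinase makes the committing step, and the bifunctional Pfkfb enzymes set the level of its activator fructose-2,6-bisphosphate. The platelet-type subunit Pfkp was at 0.95, 0.58 and 1.29 in exoNOD, against -0.15, -0.19 and 0.66 in control. Only control array 3 exceeded an exoNOD array. Pfkp changed by 0.83 ± 0.25 (SE, n = 3 each; adjusted p 0.215), or 1.78-fold, and rose with the block (SE 0.10, adjusted p 0.00197). Another, dimmer Pfkp probe changed by 0.34 and did not pass with the block (adjusted p 0.107 over probes). The muscle-type subunit Pfkm was lower on every exoNOD array, at 0.95, 0.90 and 0.72, against 1.07, 1.05 and 0.96 in control, without passing (change -0.17, adjusted p 0.424, with the block 0.199). The liver-type subunit Pfkl was at -0.35, -1.63 and -0.43 in exoNOD, against -0.97, -1.46 and -1.22 in control, with exoNOD array 2 the lowest of all 6 (change 0.41, adjusted p 0.522, with the block 0.139).

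The only gene of the set that fell was Pfkfb2, the heart-type bifunctional enzyme that beta cells also express. It was at 1.17, 1.24 and 0.47 in exoNOD, against 1.64, 1.65 and 0.90 in control. Array 3 was lowest in both groups, so the groups overlapped, while the pair differences were close to each other, at -0.48, -0.41 and -0.43. The change was -0.44 ± 0.25 (SE, n = 3 each; adjusted p 0.409), and with the block the SE was 0.079 and the adjusted p 0.00978. Without replicate 2 in both groups it did not pass (adjusted p 0.0608). Pfkfb3, the inducible isoform, was at 1.00, 0.20 and 2.38 in exoNOD, against 0.61, 0.057 and 0.94 in control (change 0.66, adjusted p 0.498, with the block 0.0648). Its array 3 stood far above the other exoNOD arrays. Gpi1, which isomerises glucose-6-phosphate, was at 5.45, 4.31 and 5.49 in exoNOD, against 4.92, 4.49 and 4.70 in control. The change was 0.38 ± 0.29 (SE, n = 3 each; adjusted p 0.521, with the block 0.155), with exoNOD array 2 below every control array. Pfkfb1 and Pfkfb4, the other bifunctional enzymes, changed by -0.016 and -0.16 and did not pass (adjusted p 0.973 and 0.612, with the block 0.947 and 0.290).

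Aldolase and the triose phosphates: Aldoc, the brain-type aldolase, was at 1.98, 1.04 and 1.87 in exoNOD, against 1.35, 1.02 and 1.03 in control. ExoNOD arrays 1 and 3 were above all control arrays and exoNOD array 2 among them. The change was 0.50 ± 0.23 (SE, n = 3 each; adjusted p 0.317), and Aldoc rose with the block just inside the threshold (SE 0.13, adjusted p 0.0487), but not without replicate 3 (adjusted p 0.113). Tpi1, triosephosphate isomerase, lay just outside (change 0.49, adjusted p 0.437, with the block 0.0559), at 3.71, 2.44 and 3.58 in exoNOD, against 2.99, 2.46 and 2.80 in control. Another Tpi1 probe changed by 0.54 with an adjusted p of 0.0448 over probes with the block. Aldoa, the muscle-type aldolase, was at 5.83, 4.88 and 5.82 in exoNOD, against 5.43, 5.07 and 5.28 in control (change 0.25, adjusted p 0.614, with the block 0.259).

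Gapdh, which oxidises glyceraldehyde-3-phosphate and often serves as a reference gene, was at 7.23, 6.66 and 7.28 in exoNOD, against 7.04, 6.81 and 6.90 in control. Its exoNOD arrays 1 and 3 were the 2 highest and array 2 the lowest of the 6. The change was 0.14 ± 0.17 (SE, n = 3 each; adjusted p 0.691, with the block 0.514), turning to -0.079 after normexp correction. All 7 Gapdh probes gave changes between 0.13 and 0.21.

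Lower glycolysis yields ATP and pyruvate. Pgk1, phosphoglycerate kinase, was at 4.69, 3.33 and 4.34 in exoNOD, against 3.83, 2.95 and 3.39 in control. Within each pair exoNOD was higher, by 0.86, 0.38 and 0.95, though exoNOD array 2 lay below 2 control arrays. The change was 0.73 ± 0.34 (SE, n = 3 each; adjusted p 0.314), or 1.66-fold, and Pgk1 rose with the block (SE 0.11, adjusted p 0.00457). Pgam1, the main phosphoglycerate mutase, was at 5.76, 4.88 and 5.81 in exoNOD, against 5.25, 4.75 and 5.20 in control. It changed by 0.42 ± 0.25 (SE, n = 3 each; adjusted p 0.413) and rose with the block near the threshold (SE 0.11, adjusted p 0.0470), but not without replicate 1 (adjusted p 0.0923) or replicate 3 (adjusted p 0.332).

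Eno1, the ubiquitous enolase, was at 6.04, 5.30 and 6.07 in exoNOD, against 5.57, 5.23 and 5.45 in control. Here too arrays 1 and 3 of exoNOD were above all controls and array 2 was not. The change was 0.39 ± 0.20 (SE, n = 3 each; adjusted p 0.364, with the block 0.0725). The neuroendocrine enolase Eno2 was at 1.14, 1.10 and 1.69 in exoNOD, against 1.37, 1.50 and 1.69 in control (change -0.21, adjusted p 0.532, with the block 0.170). Pkm, pyruvate kinase, was at 2.88, 2.19 and 2.69 in exoNOD, against 2.54, 2.41 and 2.40 in control (change 0.14, adjusted p 0.696, with the block 0.452).

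**Figure D2:**
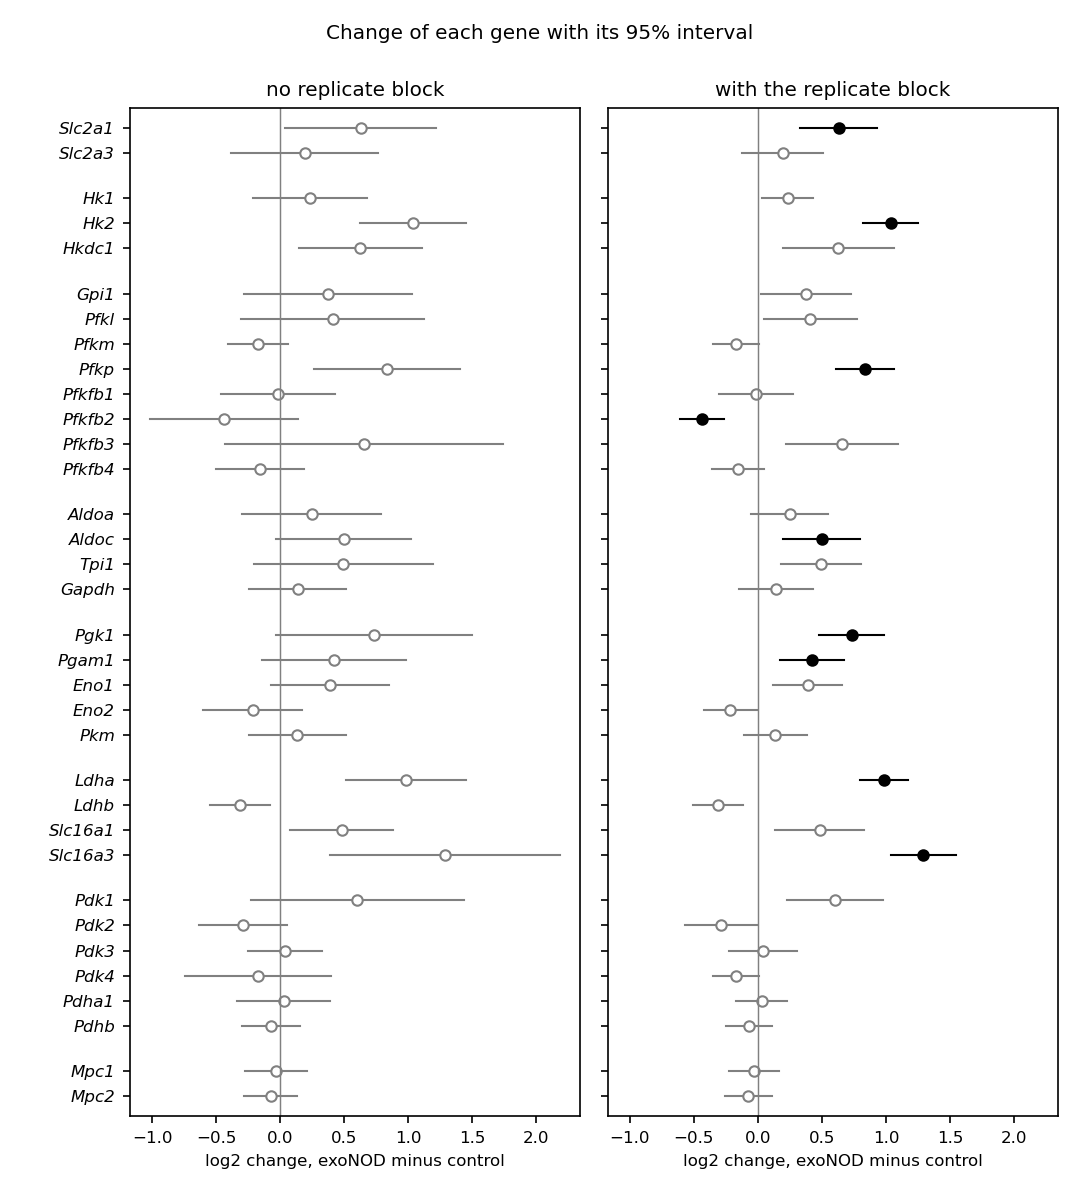
Log2 change (exoNOD minus control) of each of the 34 genes with its 95% interval, left without and right with the replicate number as a block; filled black points passed an adjusted p of 0.05 over all genes. The point of each gene is the same on both sides, and the 9 genes that passed, all with the block, run from Pfkfb2 at -0.44 to Slc16a3 at 1.29.

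The lactate genes held the largest change of the set. Ldha, the subunit of lactate dehydrogenase that favours lactate formation, was at 4.98, 4.60 and 5.28 in exoNOD, against 4.03, 3.60 and 4.28 in control. All 3 exoNOD arrays lay above all 3 control arrays, and the pair differences were nearly equal, at 0.95, 1.01 and 1.00. Ldha changed by 0.98 ± 0.21 (SE, n = 3 each; adjusted p 0.0956) and rose with the block (SE 0.085, adjusted p 0.000519). Another Ldha probe changed by 1.09, while the dimmest of the 3 changed by 0.20 and did not pass with the block (adjusted p 0.292 over probes).

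Slc16a3, which exports lactate, was at 2.23, 1.28 and 2.94 in exoNOD, against 0.96, 0.30 and 1.32 in control. Only exoNOD array 2 reached down to a control array, array 3, and each pair differed, by 1.28, 0.98 and 1.62. The change was 1.29 ± 0.39 (SE, n = 3 each; adjusted p 0.218), and Slc16a3 rose with the block (SE 0.11, adjusted p 0.000535). Its second probe gave 1.31. Slc16a1 (MCT1), a carrier for lactate and pyruvate that beta cells normally keep off, was at -2.03, -1.42 and -1.56 in exoNOD, against -2.07, -2.32 and -2.06 in control, above all controls on each exoNOD array. Its pair differences were uneven, at 0.047, 0.90 and 0.50, and it did not pass (change 0.48, adjusted p 0.254, with the block 0.0813).

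Ldhb, the subunit that favours lactate oxidation, was lower on all exoNOD arrays, at 0.029, 0.029 and 0.038, against 0.25, 0.46 and 0.33 in control. It did not pass (change -0.31, adjusted p 0.231) and with the block lay just outside the threshold, at an adjusted p of 0.0533. The log2 ratio of Ldha over Ldhb was higher in exoNOD by 1.30 ± 0.31 (SE, n = 3 each), by 1.16, 1.44 and 1.30 in the pairs. Its exact permutation p of 0.1, two-sided, is the smallest that 3 against 3 arrays allow, and 0.3 after adjustment over 6 isoenzyme ratios. The ratio of Hk2 over Hk1 was higher by 0.80 with no overlap of groups (exact permutation p 0.1, adjusted 0.3). The other 4 ratios overlapped between groups: Pfkp over Pfkm changed by 1.01, Pfkfb3 over Pfkfb2 by 1.10, Slc16a3 over Slc16a1 by 0.81 and Pdk1 over Pdk2 by 0.89, with exact permutation p between 0.2 and 0.5. In every ratio the gene named first had the higher change, and the ratios were chosen with earlier results of these data known.

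The pyruvate dehydrogenase complex turns pyruvate into acetyl-CoA, and its kinases switch it off. None of its 6 genes passed in either fit. Pdk1, a kinase known to be induced by hypoxia, was at 0.19, -1.34 and -0.24 in exoNOD, against -0.59, -1.33 and -1.27 in control, with exoNOD array 2 lowest of all 6. Its change of 0.60 ± 0.36 (SE, n = 3 each; adjusted p 0.422) lay just outside the threshold with the block (adjusted p 0.0533). Pdk2, the widespread kinase, was lower on all exoNOD arrays, at -2.34, -2.20 and -2.61, against -1.95, -2.14 and -2.20 in control (change -0.29, adjusted p 0.365, with the block 0.170). The margin was slight, since exoNOD array 2 was at -2.203 and control array 3 at -2.202. The change of Pdk2 turned to 0.28 after normexp correction.

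Pdhb, a subunit of the decarboxylase, was at 3.13, 2.89 and 3.01 in exoNOD, against 3.16, 3.05 and 3.02 in control. Its change was -0.071 ± 0.099 (SE, n = 3 each; adjusted p 0.735, with the block 0.592). Pdha1, the other subunit, and the kinases Pdk3 and Pdk4 changed by 0.030, 0.040 and -0.17 (adjusted p 0.936, 0.891 and 0.747, with the block 0.850, 0.853 and 0.201). Their groups overlapped. Mpc1 and Mpc2 form the mitochondrial pyruvate carrier. Mpc1 was at 3.28, 2.98 and 3.17 in exoNOD, against 3.27, 3.17 and 3.09 in control, a change of -0.031 ± 0.11 (SE, n = 3 each; adjusted p 0.902, with the block 0.844). Mpc2 changed by -0.074 (adjusted p 0.703, with the block 0.590). The 95% interval of the Mpc1 change with the block spanned -0.22 to 0.16, so a shift as large as that of Ldha lies outside it.

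Replicate 2 stood apart in glycolysis. Over the 22 genes from glucose uptake to pyruvate, the median level relative to the control mean was 0.59 on exoNOD array 1, -0.17 on exoNOD array 2 and 0.62 on exoNOD array 3, against 0.13, -0.18 and 0.026 on control arrays 1 to 3. ExoNOD array 2 was the lowest exoNOD array for 18 of the 22 genes (81.8%, against 30.2% of all genes), and control array 2 the lowest control array for 15 (68.2%, against 36.9%). Both held together for 15 of the 22, or 68.2%, against 13.7% of all genes. ExoNOD arrays 1 and 3 were both above all controls for 16 of the 22 (72.7%, against 18.9%), and exoNOD array 2 for 2 (9.09%, against 41.9%). These shares were computed because the pattern was seen in the values, and the genes are not independent.

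Differences between arrays of equal number vary in the same way. Of the 34 genes, 24 were higher in exoNOD in pair 1, 16 in pair 2 and 24 in pair 3, against 54.8%, 56.0% and 52.5% of all genes. Over the 22 genes the median was 0.43 in pair 1, 0.0015 in pair 2 and 0.62 in pair 3. Pair 2 was not flat for every gene, since the median of the 4 lactate genes was 0.50, 0.94 and 0.75 in pairs 1 to 3. Hk2, Pfkp, Ldha and Slc16a3 were higher by 1.18, 0.77, 1.01 and 0.98 in pair 2. Gpi1, Pfkl, Aldoa, Gapdh and Pkm had pair 2 differences between -0.22 and -0.16, with the other pairs above 0. With the block and without replicate 2 in both groups, 14 of the 34 genes rose and none fell, although fewer genes passed in all (447 of 25788). Replicate 2 was singled out from these same values, so this count is a description.

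**Figure D3:**
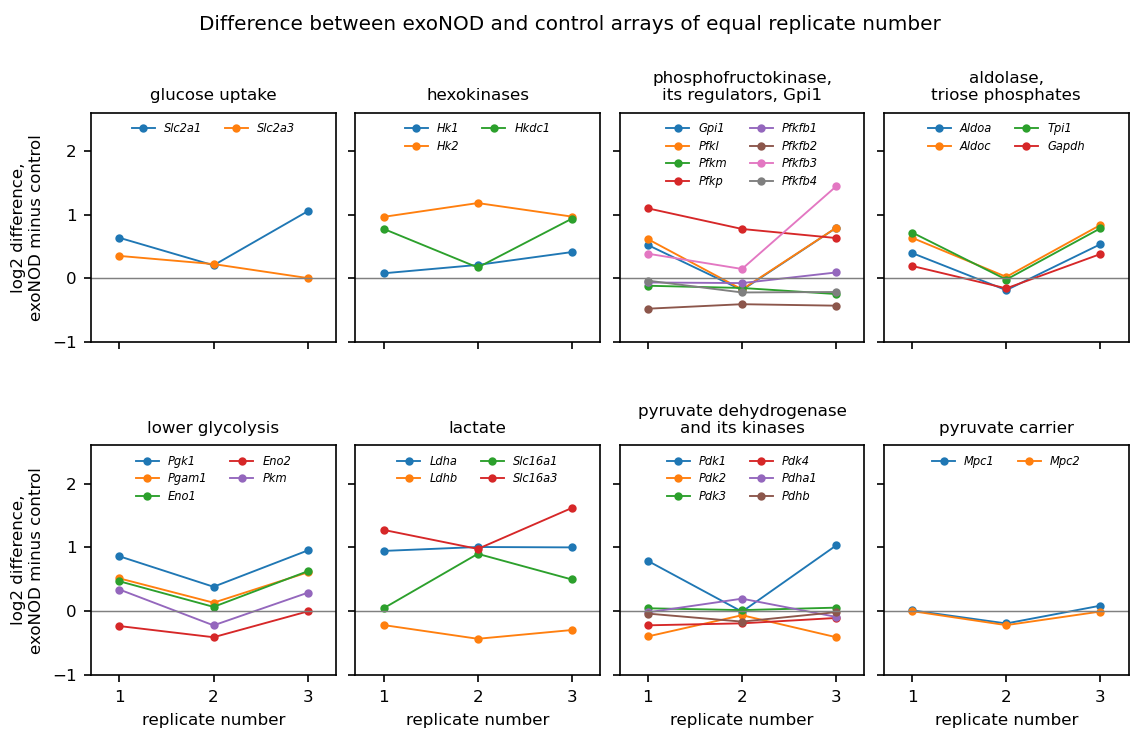
Difference in log2 signal between the exoNOD and control arrays of equal replicate number, 1 line per gene and 1 panel per step; the lines join replicate numbers only to show which points belong to 1 gene. Every line of the aldolase and lower glycolysis panels is lowest at replicate 2, whereas some upstream lines, among them Hk2, Pfkp, Pfkm and Pfkfb2, are not. Hk2, Ldha and Slc16a3 lie between 0.95 and 1.62 in every pair.

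The scan times in the file headers form 2 sets, taken here as 2 slides. Slide 1 holds all 3 control arrays and exoNOD array 1, and slide 2 holds exoNOD arrays 2 and 3. Within slide 1, exoNOD array 1 minus the control mean had a median of 0.37 over the 34 genes and was above 0 for 24 of them, against 53.8% of all genes. That difference was 1.01 for Ldha, 1.37 for Slc16a3, 0.78 for Hk2, 0.84 for Pfkp, 1.30 for Pgk1, 0.61 for Slc2a1, 0.85 for Aldoc, 0.70 for Pgam1 and -0.23 for Pfkfb2. It rests on 1 exoNOD array, and the genes named were picked by the fit with the replicate block, which used these same arrays. For Slc16a1, which did not pass, the difference was 0.13, against 0.66 for the mean of exoNOD arrays 2 and 3. With the slide as a block none of the 34 and no gene in all passed in limma, and 931 genes had an unadjusted p below 0.05.

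Genes around the pathway were read from 8 lists, of which 81 of 85 genes were tested. With the block 6 rose and 4 fell, 12.3% against 8.72% of all genes, and their median change was -0.045. No gene passed in the lists for the rest of the pyruvate dehydrogenase complex (8 genes, median -0.18), the citrate cycle (13, -0.064) or glycogen (11, 0.10). One gene passed in each of the lists for NADH shuttles (8 genes, -0.033), the pentose phosphate pathway (7, -0.020) and regulators of the pathway (12, 0.0074). In the list for gluconeogenesis and glucose-6-phosphatase 2 of 7 passed (median 0.27), and among other glycolytic isoenzymes and transporters 5 of 15 (-0.096).

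**Figure D4:**
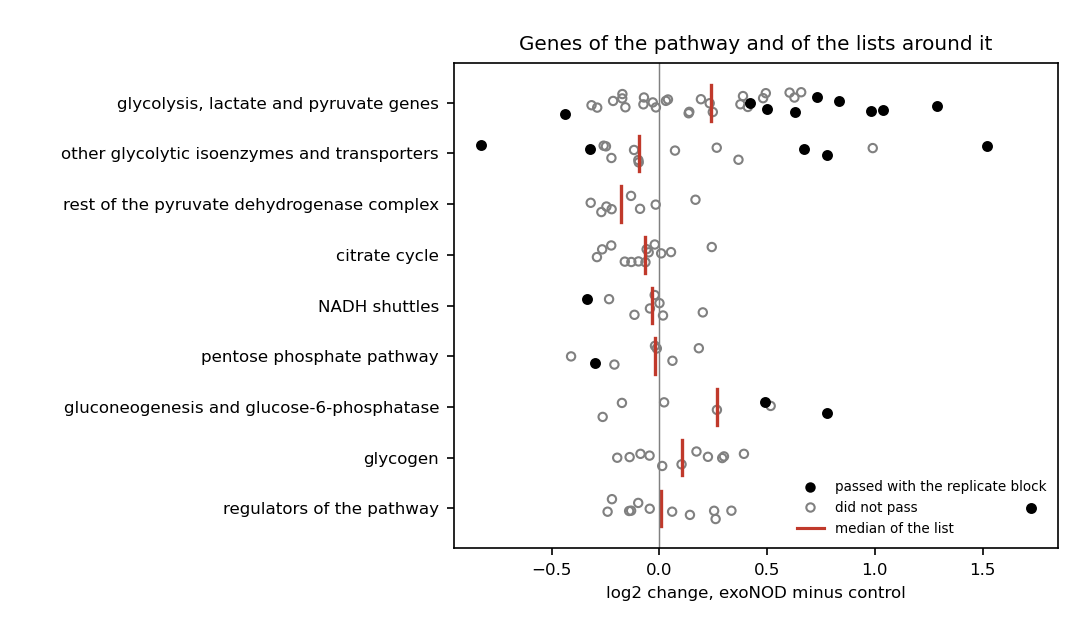
Log2 change (exoNOD minus control) of every gene in the set of 34, top row, and in the 8 lists around it, 1 point per gene with the median in red; filled points passed with the replicate block. The set of 34 has a median of 0.24 with 8 filled points above 0 and 1 below, while the citrate cycle has none; the value of Ldhc, at 1.52, is drawn as fitted although it was not above background in control.

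The beta cell's own glucose transporter went the other way from Slc2a1. Slc2a2 was at 2.21, 2.03 and 0.65 in exoNOD, against 3.11, 2.85 and 1.42 in control, with array 3 lowest in both groups. It changed by -0.83 ± 0.50 (SE, n = 3 each; adjusted p 0.422) and fell with the block (SE 0.079, adjusted p 0.000690), and it is also one of the beta cell markers summed above. Of the 10 beta cell markers 6 fell with the block and none rose.

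Egln3, an oxygen-sensing prolyl hydroxylase and textbook HIF target, changed most among the regulators. It was at -2.59, -3.74 and -1.51 in exoNOD, against -4.55, -4.87 and -3.60 in control, again with array 2 lowest in both groups. The change was 1.72 ± 0.53 (SE, n = 3 each; adjusted p 0.218), and Egln3 rose with the block (adjusted p 0.00160). Hif1a, which encodes the regulated subunit of HIF-1, did not pass (change 0.25, adjusted p 0.347, with the block 0.125). Bsg, the partner that carries Slc16a1 and Slc16a3 to the membrane, changed by 0.073 (adjusted p 0.864, with the block 0.776) and turned to -0.059 when arrays were centred on their median.

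Other genes of these lists that passed were isoenzymes, a carrier and enzymes of neighbouring pathways. Ldhc, a testis isoenzyme, was the only gene of these lists to pass without the block (adjusted p 0.0489); it was above background on 3 exoNOD arrays and no control array, and at least 2.21-fold higher. Pgam2, the muscle mutase, changed by 0.67 and Fbp2, the muscle fructose bisphosphatase, by 0.78, with adjusted p of 0.0316 and 0.0157 with the block (0.176 and 0.116 without). G6pdx, which opens the pentose phosphate pathway, changed by -0.30 (with the block 0.0475, without 0.280). Named after their values were seen, Slc16a7, another lactate and pyruvate carrier, changed by 0.78 (adjusted p with the block 0.00152), the liver enzyme Fbp1 by 0.49 (0.00948) and the mitochondrial glycerol phosphate dehydrogenase Gpd2 by -0.34 (0.0428).

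The following genes named by rule did not pass. Idh2 (isocitrate dehydrogenase) was lower on all 3 exoNOD arrays, with a change of -0.27 (adjusted p with the block 0.0813). Pyruvate carboxylase Pcx changed by -0.27 and the dehydrogenase subunit Dlat by -0.25 (0.0970 and 0.118). The aspartate carriers Slc25a12 and Slc25a13 changed by -0.12 and 0.20 (0.380 and 0.196), and Pgls by -0.21 (0.216). Glucose-6-phosphatase G6pc changed by 0.52 (0.0699), glycogen synthase Gys1 by 0.39 (0.0629) and Ugp2, which makes UDP-glucose, by 0.17 (0.187).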

How the data were processed

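Total RNA of 3 exoNOD and 3 control cultures was Cy3-labelled for 1-colour Agilent arrays. Per the file headers and the submitters' processing notes, the deposited array files are output of Agilent Feature Extraction (version 11.0.1.1), whose processed signal is an intensity, from which the authors' software had subtracted background, with no scaling across arrays. Deposited spot flags, 0 or 1 per the file headers, mark spots above background, uneven or saturated. The authors' deposited values are on the log2 scale, cover 31766 probes and lie within a median of 0.0014 of a quantile normalization of that signal. Genome build and aligner do not apply, and no positions came from the files.

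The log2 processed signal minus the 75th percentile of its array was averaged over spots of a probe. Uneven or outlying spots were left out, which dropped an array for 10 genes, none of them among the 34. A probe was kept when each array of either group showed it well above background (31063 of 39429). Symbols came from RefSeq accessions (27234 probes matched, 12195 kept under their own name), and the brightest probe stood for its gene (25788 genes). Of 52 probes for the 34 genes, 51 were kept. All probes agreed in sign for the 10 genes with several. The exoNOD and control arrays were tested in R 4.3.3 with limma 3.58.1 (lmFit, eBayes with a trend, two-sided), with Benjamini-Hochberg adjustment over all genes, and checked on simulated data. Tables and exact permutation tests used pandas 2.3.3, numpy 2.4.6 and scipy 1.17.1, reading used data.table (version 1.17.8), and figures used matplotlib 3.10.9. The number of arrays limits the precision.

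Equal replicate numbers were tested for pairing: deviations from the group means correlated across 25778 genes at r of 0.37, 0.28 and 0.48 for replicates 1 to 3, whereas the 6 unequal combinations gave r of -0.34 to 0.0088. Deviations within a group cancel out for each gene, so positive r at equal numbers forces lower r at unequal ones. The unequal combinations are therefore no separate support for pairing. The pairing comes from the data, not the labels, and the replicate number was used as a block in a fit shown beside the unpaired one. Genes described in full were those past the threshold in either fit and the brightest of each of 8 steps, and from each of 8 lists around the pathway the 2 genes with the lowest unadjusted p, with Slc2a2 and Bsg; genes that this rule also names but that are missing from the text are not reported here. The genes, lists, tests and most alternatives were chosen with earlier results of these data known. Background correction with normexp (offset 50) used the median spot signal, because no mean signal column is used here. Other alternatives were the block, quantile and median scaling, the authors' values, filters, probe averaging, the slide and leaving out arrays.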

Additional observations from a re-analysis of the deposited data

How the results depend on the processing

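Of the 34 genes, 24 kept their direction under all 21 alternatives. The other 10, with changes of at most 0.29 in size, turned in 33 of 714 values. The median change over the 34 genes stayed above 0 in all alternatives, between 0.089 and 0.38. Slc2a1, Hk2, Pfkp, Pgk1, Ldha and Slc16a3 passed in all 7 fits with the replicate block, Pfkfb2 in 6, Pgam1 in 4 and Aldoc in 3.

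Counts of calls depended on the pairing. Without pairing 27 genes passed in all, 0 of the 34 and 1 of the surrounding lists (Ldhc). With the replicate block the counts were 2249, 9 and 10. With the block and quantile normalization they were 1256, 9 and 8, with the block and the authors' values 1231, 9 and 8 (in both Eno1 in place of Aldoc), and with the block and median scaling, chosen after seeing the data, 3794, 12 and 14. The 3794 were 2130 higher and 1664 lower. Normexp gave 166, 1 (Slc16a3) and 1 (Slc2a2). Without a filter on dim probes 0 genes passed in limma, and 4638 had an unadjusted p below 0.05; with the slide as a block the counts were 0 and 931. In the lists 0 passed under quantile normalization, the authors' values, no filter, the filter on all 6 arrays, probe means and the slide. Leaving out 1 array gave 0 to 1272 genes in all (1272 without exoNOD replicate 1), 0 to 2 of the 34 (Hk2 and Slc16a1 without exoNOD replicate 1, Hk2 without control replicate 3) and 0 to 1 of the lists. Leaving out 1 pair with the block gave 447 to 4171 in all (4171, 447 and 1738 without replicates 1 to 3), 7 to 14 of the 34 (13, 14 and 7) and 5 to 15 of the lists. Among genes with an unadjusted p below 0.05, 79.7% were higher in exoNOD, and 69.1% with the block, 57.7% with quantile normalization, 57.4% with the authors' values, 47.5% with median scaling and 40.4% with normexp.

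Directions turned as follows. After normexp, changes were -0.079 for Gapdh, -0.047 for Pkm, 0.28 for Pdk2, 0.43 for Pfkfb1, -0.063 for Bsg and 0.050 for Pgls. Under median scaling, with or without the block, they were -0.092 for Pdk3, -0.10 for Pdha1 and -0.059 for Bsg. Pdk3 was at -0.065 under quantile normalization and with the authors' values, with or without the block. With the slide as a block, changes were -0.055 for Slc2a3, 0.25 for Pfkfb1, -0.036 for Pdk3, 0.072 for Pdk4, -0.052 for Pdha1, 0.047 for Pdhb, 0.10 for Mpc1 and 0.0045 for Pcx. Leaving out 1 array gave -0.0099 to 0.45 for Slc2a3, -0.15 to 0.14 for Pfkfb1, -0.010 to 0.33 for Pkm, -0.0013 to 0.078 for Pdk3, -0.43 to 0.052 for Pdk4, -0.13 to 0.15 for Pdha1, -0.098 to 0.050 for Mpc1 and -0.084 to 0.31 for Bsg. Leaving out 1 pair with the block gave -0.070 to 0.013 for Pfkfb1 (0.0085 without replicate 1), -0.053 to 0.090 for Pdha1, -0.089 to 0.050 for Mpc1 and -0.10 to 0.34 for Bsg (-0.023 without replicate 1). The cause of these turns was not tested.

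With 3 arrays a group and 1 exoNOD array on the slide of the controls, slide and treatment are separated only by that array. Ldhc had a bound only, since no control array measured it above background.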
